A study of Homo sapiens with 9 samples.

Results

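Mitochondrially encoded transcripts are the RNAs made from mitochondrial DNA (mtDNA) itself rather than from nuclear genes. They were taken here as every row of the count table whose name starts with MT-, which gave 37 of 59453 gene names: 13 mRNAs, 2 rRNAs and 22 tRNAs. The RNA-Seq libraries came from MDA-MB-231, a human cell line of triple-negative breast cancer, grown without treatment or with the copper chelator TEPA, a polyamine, for 8 h or 24 h, with 3 libraries in each of the 3 groups. The sample labels give TEPA at 8 mM and the RNA sequencing methods give 4 mM. A single untreated group served both times and its time in culture is not given in the sources used here, so that TEPA and time in culture cannot be told apart. Nothing in the labels says that replicates came from separate flasks, so p-values measure only the spread between these libraries, which may be technical. Total counts per library ran from 34633755 to 49342659.

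The label of the cell line was checked against its markers. VIM, the mesenchymal filament protein vimentin, lay between 3242 and 4435 CPM, the count relative to the TMM-scaled library size, in every library. ESR1, the estrogen receptor, was at most 0.240 CPM, and PGR, the progesterone receptor, had no count in any library, which allows up to 0.0245 CPM in the untreated group. ERBB2, a receptor that is low in this class of tumor, was not near 0, at 51.9 to 87.1 CPM. Of markers of other cells, the T cell gene CD3E had no count, the leukocyte gene PTPRC was at most 0.133 CPM and the endothelial gene CDH5 at most 0.0800 CPM. The leukocyte markers, led by CD68, summed to 0.22, 0.329 and 0.28 CPM in the untreated, 8 h and 24 h groups. The luminal epithelial markers, led by KRT8, were not near 0, at sums of 718, 602 and 692 CPM in the same order. The summed level of the 4 fibroblast markers, of which PDGFRB was the most abundant, was 47.9, 59.6 and 112.8 CPM in the untreated, 8 h and 24 h groups, while DCN, which defines that lineage, had no count in the untreated and 8 h libraries. PECAM1, the other endothelial marker, stood at means of 3.59, 1.06 and 8.13 CPM in the same groups. The part of these markers in the mitochondrial results was not tested.

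Human mtDNA is a small circle that encodes core subunits of the respiratory chain and of ATP synthase, together with the rRNAs and tRNAs that the mitochondrial ribosome needs to make them. It is transcribed from both strands as long RNAs that run through many genes, and the tRNAs that lie between the other genes are cut out, which releases the mRNAs and rRNAs. The heavy-strand transcript, which starts at the heavy-strand promoter, carries nearly all mRNAs and both rRNAs, and the light-strand transcript carries MT-ND6 and a smaller set of tRNAs. Nuclear genes supply the RNA polymerase, the cutting enzymes, the stabilizing proteins and most subunits of the complexes. Complex IV, cytochrome c oxidase, is the copper enzyme of the chain, with its copper sites in the MT-CO1 and MT-CO2 proteins.

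Both promoters lie in the control region, which ends where MT-TF, the first gene of the heavy-strand transcript, begins. The last 200 bases before MT-TF are shown because every member is copied from starts in or near this stretch. They are at chrM:377-576 of the hg38 reference, written along the plus strand, in which the genes of the heavy-strand transcript are read.
Control region before MT-TF: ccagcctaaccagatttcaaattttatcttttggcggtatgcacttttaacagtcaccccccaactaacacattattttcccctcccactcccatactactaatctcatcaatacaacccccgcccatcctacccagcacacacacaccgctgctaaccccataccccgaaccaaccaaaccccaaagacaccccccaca

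The tRNAs are shown for the members that stood farthest from untreated cells at 8 h on the light strand, and for the tRNA with the most counts. Each is written 5′ to 3′ as it is transcribed, with the anticodon in capitals. MT-TP (proline, chrM:15956-16023), MT-TE (glutamate, chrM:14674-14742) and MT-TQ (glutamine, chrM:4329-4400) are on the minus strand of the hg38 reference and belong to the light-strand transcript. MT-TL1 (leucine, chrM:3230-3304) is on the plus strand, between MT-RNR2 and MT-ND1, and belongs to the heavy-strand transcript.
MT-TP: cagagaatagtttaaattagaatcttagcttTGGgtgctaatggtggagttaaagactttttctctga
MT-TE: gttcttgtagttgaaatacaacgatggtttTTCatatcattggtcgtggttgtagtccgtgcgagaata
MT-TQ: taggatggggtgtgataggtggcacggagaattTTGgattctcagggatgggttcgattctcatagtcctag
MT-TL1: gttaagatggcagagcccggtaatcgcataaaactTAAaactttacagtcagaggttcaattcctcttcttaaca

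Pairs of mRNA genes overlap on mtDNA, and the shared bases are shown because a read on them falls on both genes. MT-ATP8 and MT-ATP6 share 46 bases and MT-ND4L and MT-ND4 share 7, in capitals within chrM:8503-8596 and chrM:10736-10790, plus strand, each opening with the start codon of the second gene.
MT-ATP8/MT-ATP6: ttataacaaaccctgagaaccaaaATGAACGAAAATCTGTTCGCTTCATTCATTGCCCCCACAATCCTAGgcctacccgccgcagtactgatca
MT-ND4L/MT-ND4: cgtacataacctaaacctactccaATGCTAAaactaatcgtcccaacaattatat
The ratio of MT-ATP8 to MT-ATP6 counts stayed between 0.200 and 0.211 in the 9 libraries, so these overlapping genes moved together.

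Mitochondrial transcripts took their largest share of the counts at 8 h. They took 1.79%, 2.91% and 2.13% of all counts in untreated replicates 1, 2 and 3, 3.98%, 3.61% and 4.02% after 8 h of TEPA, and 2.02%, 1.89% and 1.95% after 24 h. The means were 2.28% ± 0.572, 3.87% ± 0.227 and 1.95% ± 0.0646 (SD, n = 3 each). Every library at 8 h was above every other library, and the 24 h libraries lay inside the range of the untreated ones. The mRNAs made up 1.85% ± 0.498 of all counts in untreated cells, 3.26% ± 0.187 at 8 h and 1.51% ± 0.0537 at 24 h. The rRNAs made up 0.421% ± 0.0734, 0.610% ± 0.0441 and 0.445% ± 0.0111. Within the mitochondrial counts, the rRNA share was 17.3% to 20.1% in untreated libraries, 15.4% to 16.3% at 8 h and 22.6% to 22.9% at 24 h, so it was lowest at 8 h and highest at 24 h with no overlap between the groups. These shares, and CPM, are relative to the other RNA of a library and are not amounts per cell. A rise in mitochondrial RNA and a fall in other RNA cannot be told apart in them. Nor can a change in the number of cells or mitochondria and a change in RNA per mitochondrion, since cells were taken in bulk.

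**Figure D1:**
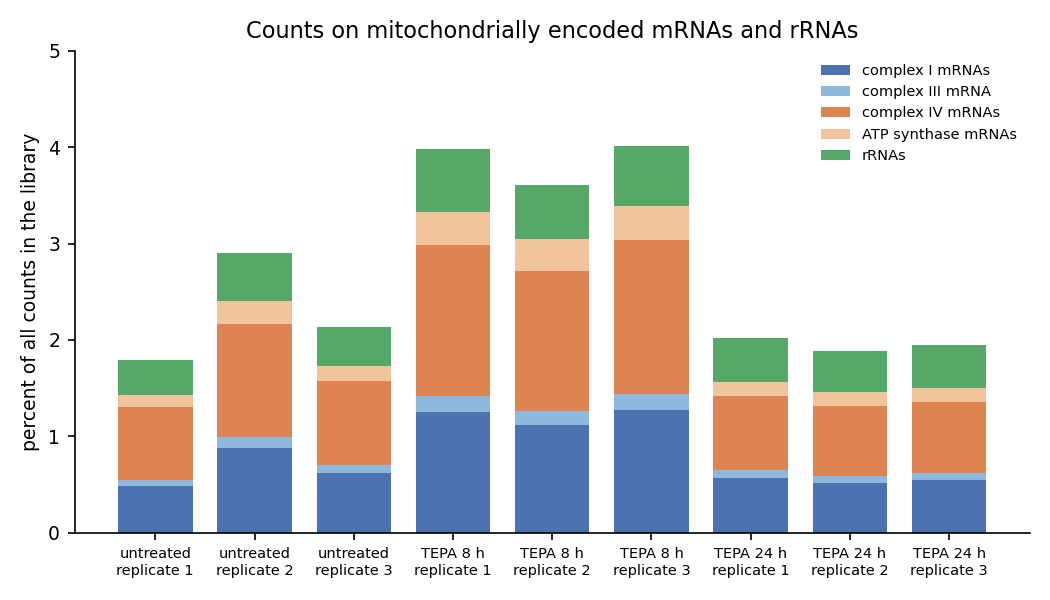
Percent of all counts in each of the 9 libraries that fell on mitochondrially encoded mRNAs, by complex, and on rRNAs (stacked bars, linear axis from 0). The 3 libraries at 8 h reach 3.61% to 4.02%, the untreated ones 1.79% to 2.91%, and the 24 h ones 1.89% to 2.02%.

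Untreated replicate 2 stood above the other untreated libraries in the mitochondrial rows. It was the highest untreated library for 28 of the 28 members that could be tested, and the order replicate 1, replicate 3, replicate 2 held for 26 of these 28, against 23.8% of all genes tested. Its share of mitochondrial counts, 2.91%, was between the other untreated libraries and those at 8 h. For MT-ND4 it read 3132 CPM, where untreated replicates 1 and 3 read 1581 and 2113 CPM. Counts were also compared between pairs of untreated libraries over the tested genes. The chi-square per degree of freedom was 21.4 for replicates 1 and 2, 8.65 for 1 and 3 and 6.65 for 2 and 3. Over these genes replicate 1, not replicate 2, was thus the farther from replicate 3. Groups of 3 are too small for an outlier test, and the results below are therefore given with and without untreated replicate 2 where it mattered.

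Of the 37 members, 28 passed the expression filter and were tested with edgeR's quasi-likelihood test, with all 9 libraries in one fit. They were the 13 mRNAs, the 2 rRNAs and 13 of the 22 tRNAs. Of these, 3 tRNAs (MT-TC, MT-TS1 and MT-TK) passed the filter only through the 8 h libraries, where their counts were highest, and they did not pass it in a fit of the untreated and 24 h libraries alone. Their calls as higher at 8 h, or as lower at 24 h than at 8 h, are therefore not independent of the filter, and the counts that bear on them are also given over the other 25 members. At 8 h, 23 of the 28 (82.1%) were higher than in untreated cells at a Benjamini-Hochberg adjusted p under 0.05, beside 25.2% of all 16556 genes tested. Over the other 25 members, 20 were higher at 8 h and the median was 0.96 on the log2 scale. None of the 28 was lower, also at an unadjusted p under 0.05 and with DESeq2, which called 24 higher. The groups did not overlap for 23 members, all of them higher, beside 29.2% of all genes. The median log2 fold change over the 28 was 0.98, beside -0.0013 over all genes tested. Leaving out each library in turn gave 20 to 28 members higher, with 28 of 29 tested when untreated replicate 2 was the library left out, and 20 of the 23 were called in each of the 6 fits that left out a library of the groups compared.

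At 24 h mitochondrial transcripts were lower or did not pass. None of the 28 was higher (0 at an unadjusted p under 0.05 and 0 with DESeq2) and 12 (42.9%) were lower by edgeR's test, beside 26.8% of all genes, with a median log2 fold change of -0.34 beside 0.0023. The median over the 28 was -0.07 without untreated replicate 2. The groups did not overlap for 4 members, MT-RNR1, MT-CO2, MT-CO3 and MT-TQ, all lower, beside 28.9% of all genes. DESeq2 called 4 lower, MT-RNR1, MT-TL1, MT-CO3 and MT-TD, and edgeR without untreated replicate 2 called 4 lower and 2 higher, the latter MT-RNR2 and MT-TV. Without untreated replicate 1, 19 were lower. The calls that held in each of the 6 edgeR fits that left out a library of these groups were MT-RNR1, MT-TL1, MT-CO2 and MT-CO3, of which DESeq2 did not call MT-CO2 (adjusted p = 0.059).

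The libraries at 24 h were also compared with those at 8 h. The untreated libraries enter this comparison only through the shared filter, scaling factors and estimate of spread. Here 24 of the 28 members (85.7%) were lower by edgeR's test, beside 28.8% of all genes, and none was higher (0 at an unadjusted p under 0.05 and 0 with DESeq2). Their median log2 fold change was -1.38, beside -0.0155 over all genes, and 25 members were lower without overlap and 0 higher, beside 32.4% and 29.6% of all genes. Each of the 24 calls held in the 6 fits that left out a library of these groups. Over the 25 members whose passage through the filter did not rest on the 8 h libraries, 21 were lower, with a median of -1.32. The 4 not called were MT-ND3, MT-TV, MT-TW and MT-TT.

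**Figure D2:**
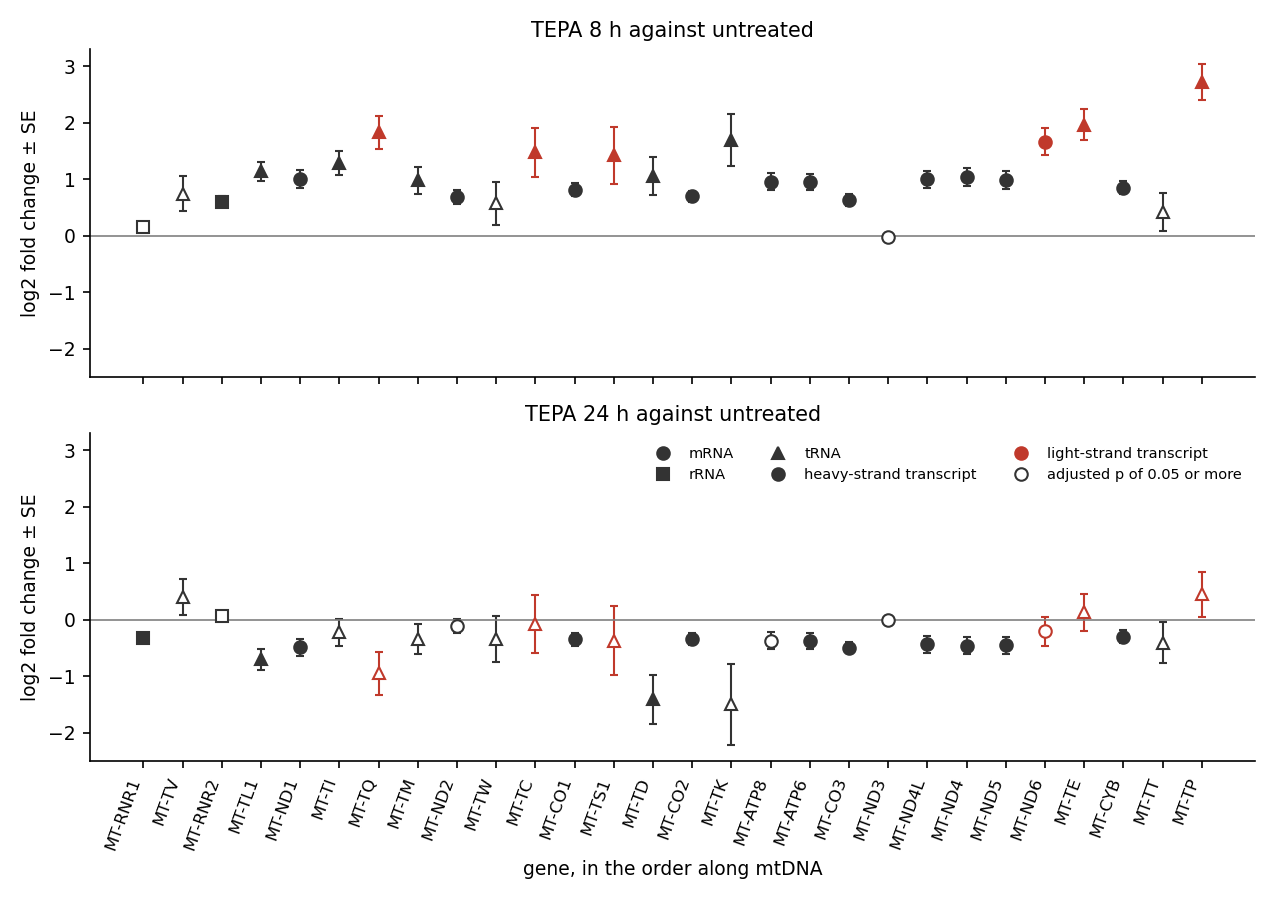
The log2 fold change of the 28 tested members at 8 h (top) and 24 h (bottom) against untreated cells, in their order along mtDNA, with bars of 1 standard error and open symbols where edgeR's adjusted p was 0.05 or more. At 8 h the light-strand members (red) lie at 1.42 to 2.73 and MT-ND3 at -0.02, and at 24 h most members lie below 0.

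The mRNAs of complex I, which takes electrons from NADH, rose at 8 h with 1 exception. MT-ND4 (chrM:10760-12137), a proton-pumping subunit, read 1581, 3132 and 2113 CPM in untreated replicates 1, 2 and 3, 4820, 4262 and 4900 CPM at 8 h, and 1736, 1591 and 1650 CPM at 24 h. Its 8 h libraries lay above all others and its 24 h libraries within the untreated range. The log2 fold change was 1.03 (SE 0.16, edgeR adjusted p = 5.0e-05) at 8 h and -0.46 (SE 0.15, adjusted p = 0.021) at 24 h. MT-ND1 (chrM:3307-4262), MT-ND4L (chrM:10470-10766) and MT-ND5, other membrane subunits, were alike, each within 0.99 to 1.03 with MT-ND4 at 8 h and at -0.48, -0.43 and -0.45 at 24 h, past the threshold in edgeR's test. MT-ND2 (chrM:4470-5511) rose less at 8 h, by 0.68 (SE 0.12, edgeR adjusted p = 3.1e-04), and its 24 h value of -0.10 did not pass (adjusted p = 0.53). The 24 h calls of MT-ND4, MT-ND1, MT-ND4L and MT-ND5 were lost without untreated replicate 2, at -0.16, -0.20, -0.15 and -0.14 (edgeR adjusted p = 0.14, 0.083, 0.20 and 0.16).

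MT-ND3 (chrM:10059-10404), a small membrane subunit of complex I, was the exception. It read 436, 577 and 484 CPM in untreated cells, 502, 468 and 511 CPM at 8 h and 515, 481 and 504 CPM at 24 h. The 3 groups overlapped throughout. The log2 fold change was -0.02 (SE 0.07, edgeR adjusted p = 0.86) at 8 h, 0.00 (SE 0.07, adjusted p = 0.99) at 24 h and 0.02 (SE 0.07, adjusted p = 0.84) between the times, and over the fits that each left out 1 library the 8 h value ran from -0.11 to 0.09. MT-CO3, its neighbor 5′ on the same transcript, separated from it by MT-TG, rose at 8 h. The ratio of MT-ND3 to MT-CO3 counts was accordingly 17% to 20.1% in untreated libraries, 11.6% to 11.8% at 8 h and 25.1% to 26.2% at 24 h, with no overlap between the groups. At 16358 counts or more in every library, MT-ND3 was not limited by depth.

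The mRNAs of complex III and complex IV were also higher at 8 h by edgeR's test. MT-CYB (chrM:14747-15887), the cytochrome b of complex III and its only mtDNA-encoded subunit, read 697, 1123 and 817 CPM in untreated cells, 1648, 1449 and 1653 CPM at 8 h and 740, 710 and 693 CPM at 24 h. It rose at 8 h by 0.85 on the log2 scale (SE 0.11, edgeR adjusted p = 1.8e-05) and was lower at 24 h by edgeR's test at -0.30 (SE 0.11, adjusted p = 0.038). MT-CO1 (chrM:5904-7445), the catalytic subunit of cytochrome c oxidase with a heme-copper center, had the most counts of the mRNAs at 3621, 5895 and 4267 CPM in untreated cells, 8325, 7550 and 8390 CPM at 8 h and 3762, 3583 and 3515 CPM at 24 h. All 8 h libraries were above the untreated ones, whereas those at 24 h overlapped them. Its log2 fold change was 0.82 (SE 0.12, edgeR adjusted p = 2.8e-05) at 8 h and -0.34 (SE 0.11, adjusted p = 0.019) at 24 h.

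MT-CO2 (chrM:7586-8269), the subunit that takes electrons from cytochrome c, and MT-CO3 (chrM:9207-9990), a core membrane subunit, had groups that did not overlap at either time. MT-CO2 read 1732, 2625 and 1967 CPM in untreated cells, 3406, 3281 and 3559 CPM at 8 h, and 1698, 1632 and 1674 CPM at 24 h. MT-CO3 read 2174, 3406 and 2588 CPM, then 4266, 4037 and 4406 CPM, then 1986, 1914 and 1925 CPM. Both were therefore above the untreated range at 8 h and just below it at 24 h. MT-CO2 rose by 0.70 (SE 0.10, edgeR adjusted p = 2.9e-05) at 8 h, and was at -0.34 (SE 0.10, adjusted p = 0.0090) at 24 h, and MT-CO3 rose by 0.64 (SE 0.10, adjusted p = 1.1e-04) and was at -0.49 (SE 0.10, adjusted p = 9.5e-04). Without untreated replicate 2 the 24 h values were -0.15 for MT-CO2 (edgeR adjusted p = 0.019) and -0.30 for MT-CO3 (adjusted p = 4.0e-04). MT-CYB and MT-CO1, at -0.09 and -0.13, lost their calls at 24 h without that library (edgeR adjusted p = 0.28 and 0.094).

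The mRNAs of ATP synthase encode its membrane subunits and overlap as shown above. MT-ATP6 (chrM:8527-9207) read 1071, 2012 and 1386 CPM in untreated cells, 2903, 2736 and 3029 CPM at 8 h, and 1182, 1107 and 1155 CPM at 24 h, and MT-ATP8 (chrM:8366-8572) read 220, 426 and 277 CPM, 610, 559 and 619 CPM, and 244, 231 and 242 CPM. Each rose at 8 h without overlap and fell back into the untreated range at 24 h. The log2 fold changes were 0.96 (SE 0.14, edgeR adjusted p = 4.6e-05) and 0.95 (SE 0.15, adjusted p = 7.6e-05) at 8 h. At 24 h they were -0.38 (SE 0.14, adjusted p = 0.035) and -0.36 (SE 0.15, adjusted p = 0.052), on either side of the threshold, and without untreated replicate 2 they were -0.10 and -0.06, with neither called (adjusted p = 0.29 and 0.54).

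**Figure D3:**
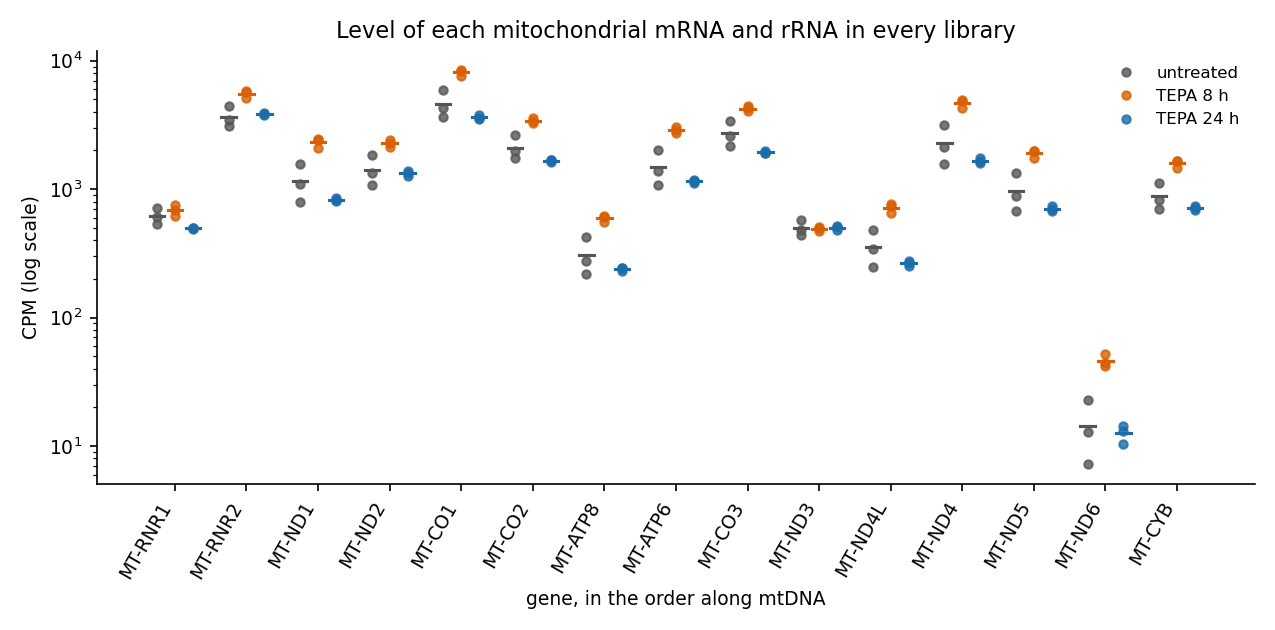
CPM (log axis) of the 13 mRNAs and 2 rRNAs in each library, with a short line at each group mean, in the order along mtDNA. The 8 h points lie above the others for the mRNAs other than MT-ND3, whose 9 points lie between 436 and 577 CPM, and untreated replicate 2 is the highest grey point of every gene.

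MT-ND6 (chrM:14149-14673), a complex I subunit and the mRNA of the light-strand transcript, showed the largest change among the mRNAs at 8 h. It read 7.22, 22.7 and 12.9 CPM in untreated cells, 51.7, 41.8 and 43.9 CPM at 8 h and 14.4, 10.3 and 13 CPM at 24 h. Its 8 h libraries were well above the others, and those at 24 h lay within the untreated range. The log2 fold change was 1.66 (SE 0.24, edgeR adjusted p = 3.3e-05) at 8 h, -0.20 (SE 0.26, adjusted p = 0.54) at 24 h (0.32 without untreated replicate 2, adjusted p = 0.15) and -1.86 (SE 0.24, adjusted p = 8.7e-06) between the times. Set against the heavy-strand mRNAs per base, MT-ND6 stood at 1.04% to 1.93% in untreated libraries, 2.62% to 3.16% at 8 h and 1.5% to 1.97% at 24 h. MT-ND5 (chrM:12337-14148) is its neighbor on the other strand, and the 3′ ends of both genes meet. The ratio of MT-ND6 to MT-ND5 counts was 1.08% to 1.71%, 2.21% to 2.64% and 1.52% to 1.95%. In both ratios the 8 h libraries were above all others, while untreated and 24 h libraries overlapped. MT-ND6 mRNA is known to lack the poly(A) tail of the other mRNAs, and these libraries were made with a kit that selects poly(A) RNA, so its level here is not comparable with theirs.

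The rRNAs changed less than most mRNAs. MT-RNR2 (chrM:1671-3229), the large-subunit rRNA, read 3081, 4407 and 3431 CPM in untreated cells, 5842, 5100 and 5665 CPM at 8 h and 3909, 3758 and 3819 CPM at 24 h, and MT-RNR1 (chrM:648-1601), the small-subunit rRNA, read 539, 710 and 605 CPM, then 748, 619 and 683 CPM, then 500.1, 495 and 489 CPM. MT-RNR2 was above the untreated range at 8 h and within it at 24 h, whereas MT-RNR1 overlapped untreated cells at 8 h and lay below them at 24 h. MT-RNR2 rose at 8 h by 0.60 (SE 0.09, edgeR adjusted p = 4.9e-05), and its value at 24 h was 0.07 (SE 0.09, adjusted p = 0.52). MT-RNR1 was at 0.15 (SE 0.08, adjusted p = 0.14) at 8 h and fell at 24 h, at -0.32 (SE 0.08, adjusted p = 0.0026). Without untreated replicate 2, MT-RNR1 passed the threshold at 8 h as higher, at 0.25 (edgeR adjusted p = 0.0034), and was at -0.21 at 24 h (adjusted p = 0.0095). MT-RNR2 passed at 24 h as higher, at 0.23 (edgeR adjusted p = 0.0020).

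The rRNA genes are adjacent on the heavy-strand transcript, with MT-TV between them. Their count ratio, MT-RNR2 over MT-RNR1, was 5.72, 6.21 and 5.67 without TEPA, then 7.81, 8.24 and 8.30 after 8 h and 7.82, 7.58 and 7.81 after 24 h. It was higher in each of the 6 TEPA libraries than in the 3 untreated ones, and untreated replicate 2 did not reach the TEPA range. With poly(A) selection, rRNA rows measure the part of the rRNA that the selection lets through and not the ribosome content.

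The light-strand members rose together at 8 h. Of the 9 genes on the light-strand transcript 6 had enough counts to be tested, and 6 of 6 were higher at 8 h in edgeR's test, at log2 fold changes of 1.42 to 2.73 with a median of 1.74, beside 25.2% of all genes higher. Of the 6, MT-TC and MT-TS1 passed the filter only through the 8 h libraries, and the other 4 were all called higher, with a median of 1.90. The median of the 6 was 2.38 without untreated replicate 2. Of 22 tested heavy-strand members 17 were higher, with a median of 0.90. Without MT-TK, which passed the filter only through the 8 h libraries, 16 of 21 were higher, with a median of 0.85. The 8 heavy-strand tRNAs, MT-TK among them, had a median of 1.02. At 24 h none of the 6 passed the threshold in either direction (at an unadjusted p under 0.05, 0 higher and 1 lower; by DESeq2, 0 in each direction), with a median of -0.14, beside 25.7% of all genes higher and 26.8% lower, and between the times all 6 fell, with a median of -1.85, beside 28.8%. The sign of the 24 h median rested on untreated replicate 2, without which it was 0.51 and again none of the 6 passed. Over the 4 that did not depend on the 8 h libraries, the median between the times was -2.07, and all 4 fell. The difference between the strands was not tested, and the members of a strand share 1 transcript and are not independent.

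MT-TP, the proline tRNA shown above, was the gene nearest the light-strand start and had the largest fold change of all tested members at 8 h. It had 9, 27 and 10 counts in untreated replicates 1, 2 and 3, then 122, 69 and 95 counts after 8 h of TEPA, and 36, 16 and 15 counts after 24 h. The 8 h libraries held the highest counts and the 24 h libraries overlapped the untreated ones. The log2 fold change was 2.73 (SE 0.32, edgeR adjusted p = 4.5e-06) at 8 h, a 6.62-fold difference, and 0.45 (SE 0.39, adjusted p = 0.36) at 24 h. Without untreated replicate 2 the 24 h value was 1.04 (edgeR adjusted p = 0.059). MT-TE had 8, 24 and 13 counts, then 63, 50 and 52 counts, then 19, 21 and 12 counts, and rose at 8 h by 1.97 (SE 0.28, edgeR adjusted p = 3.0e-05). MT-TQ had 10, 28 and 10 counts, then 56, 54 and 49 counts, then 11, 9 and 6 counts, and rose at 8 h by 1.83 (SE 0.29, edgeR adjusted p = 8.9e-05). All 3 were above the untreated range at 8 h. MT-TC (cysteine) and MT-TS1 (serine) also passed at 8 h, at 1.48 (adjusted p = 0.010) and 1.42 (adjusted p = 0.028) in edgeR's test, but on at most 28 counts in any library, and both were testable only through the 8 h libraries. Over the 6 fits that left out a library of these groups, MT-TC was called in 4 and MT-TS1 in 2. For MT-TS1 the log2 fold change ran from 1.05 to 2.51, with 2.51 (adjusted p = 0.0017) without untreated replicate 2. Light-strand tRNAs made up 6.39% to 10.3% of all mitochondrial tRNA counts in untreated libraries, 14.4% to 17.9% at 8 h and 9.46% to 12.8% at 24 h.

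Among heavy-strand tRNAs, MT-TL1 had the most counts, with 247, 667 and 399 in untreated replicates 1, 2 and 3, then 917, 848 and 907 after 8 h, and 345, 293 and 212 after 24 h. On the CPM scale these were 6.59, 14.6 and 10.1 CPM, 22.9, 22.2 and 24.7 CPM, and 6.77, 6.79 and 5.89 CPM. It rose at 8 h by 1.14 (SE 0.17, edgeR adjusted p = 4.7e-05) and fell at 24 h, at -0.70 (SE 0.19, adjusted p = 0.0057), although its 24 h libraries overlapped untreated replicate 1. Without untreated replicate 2 the 24 h value was -0.36 (edgeR adjusted p = 0.034). MT-TI, MT-TM, MT-TD and MT-TK, the tRNAs for isoleucine, methionine, aspartate and lysine, rose at 8 h by 1.29, 0.98, 1.06 and 1.69. The value of MT-TK rests on 1, 7 and 6 untreated and 19, 11 and 13 counts at 8 h, and it passed the filter only through the latter. MT-TD was also called lower at 24 h, at -1.40 (SE 0.43, edgeR adjusted p = 0.012), on 18, 6 and 8 counts. Without untreated replicate 2 that call was lost, at -0.89 (adjusted p = 0.11), and the 8 h call of MT-TD held in 3 of the 6 fits that left out a library of those groups. MT-TV, MT-TW and MT-TT, for valine, tryptophan and threonine, were at 0.74, 0.57 and 0.43 at 8 h and did not pass the threshold (edgeR adjusted p = 0.059, 0.22 and 0.32). Without untreated replicate 2 all 3 passed as higher at 8 h, at 1.38, 1.11 and 1.09 (edgeR adjusted p = 4.7e-04, 0.032 and 0.0068), and DESeq2 with all libraries called MT-TV (adjusted p = 0.036).

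Few counts limited the remaining tRNAs. MT-TK had 43 counts over the 8 h libraries and 5 over those at 24 h, a ratio of CPM of 9.73 with an exact 95% interval of 3.86 to 31.5, which covers counting error only. Since MT-TK passed the filter only through the 8 h libraries, this ratio is not independent of the filter. The 9 tRNAs that were not tested were MT-TF, MT-TA, MT-TN, MT-TY, MT-TG, MT-TR, MT-TH, MT-TS2 and MT-TL2, and none of them exceeded 12 counts in any library. MT-TY (tyrosine) had 5, 3 and 9 counts at 8 h and none in the 24 h libraries, where 3 counts over the group would be 0.0231 CPM. MT-TN and MT-TS2 had 1 count each in all 9 libraries together. MT-TA held 9 counts over the untreated, 29 over the 8 h and 8 over the 24 h libraries. The tRNAs are shorter than the 100-base reads. Read pairs that also touch a neighbor on the same strand may go uncounted or to that neighbor under the settings used. These rows therefore hold a small part of the tRNA and its precursors and do not measure mature tRNA.

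**Figure D4:**
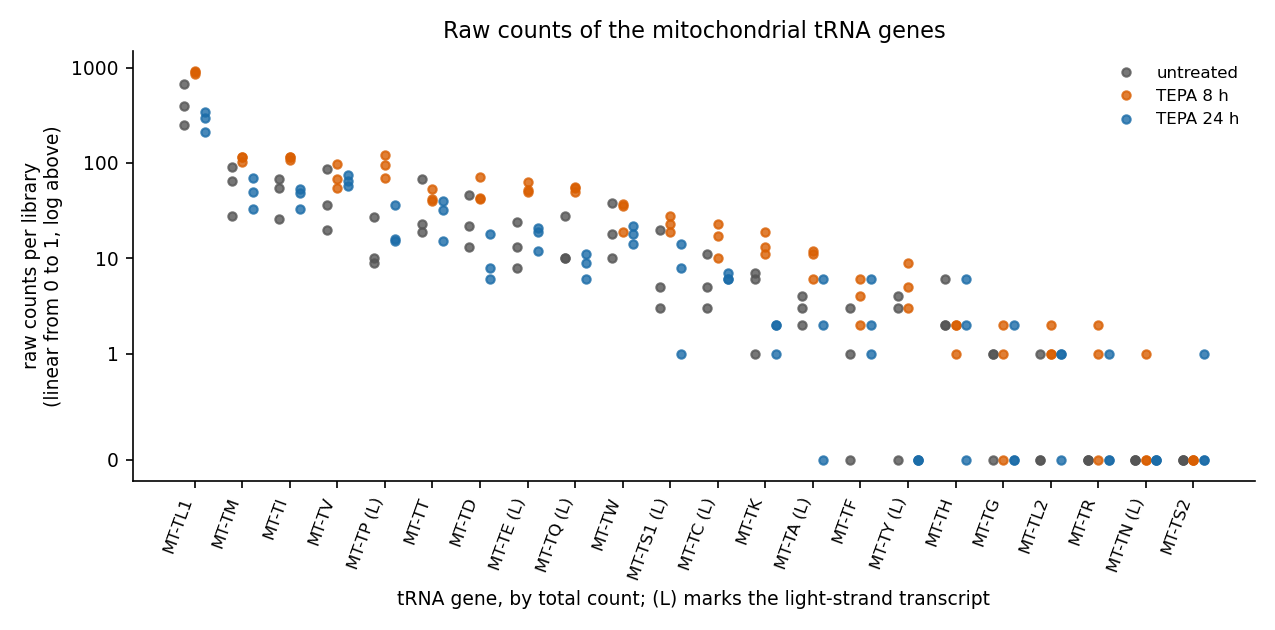
Raw counts of the 22 tRNA genes in each library (linear from 0 to 1, log above), ordered by total count, with (L) for the light-strand transcript. MT-TL1 leads with up to 917 counts, the 8 h points are highest for most tRNAs to the left, and the 9 untested tRNAs on the right stay at 12 counts or fewer.

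Levels were compared between genes per kilobase of gene (CPM per kb). In untreated cells MT-CO3 stood highest at 3473 ± 799 CPM per kb (SD, n = 3), followed by MT-CO2 at 3082 and MT-CO1 at 2979, and MT-ND5 lowest at 530, with MT-ND6 left out of the order for its missing tail. Neighbors in this order overlapped between libraries down to MT-ND5. At 8 h MT-CO3 stood at 5404 ± 237 CPM per kb, with MT-CO1, at 5245, and MT-CO2, at 4993, overlapping it in turn, and MT-ATP6, at 4243, below them without overlap. That gap holds only without the counts of MTATP6P1, a nuclear copy of MT-ATP6, which stood at 16.0% to 16.3% of MT-ATP6 at 8 h. At 24 h MT-CO3, MT-RNR2, MT-CO2 and MT-CO1 stood at 2477, 2456, 2439 and 2348 CPM per kb and each overlapped the next. The complex IV mRNAs thus held the highest mean mRNA levels in all 3 groups. MT-ND3 was at rank 8 in untreated cells, 11 at 8 h and 6 at 24 h while its own level hardly moved, from 1443 to 1426 and 1445 CPM per kb. MT-RNR1 was at 648, 716 and 519 CPM per kb, far below MT-RNR2 at 2335, 3551 and 2456 CPM per kb.

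The untreated libraries differed among themselves in a pattern like that of 8 h against untreated cells. Across the 13 mRNAs and 2 rRNAs, the log2 difference between untreated replicates 2 and 1 ran from 0.40 for MT-RNR1 and 0.40 for MT-ND3 to 1.65 for MT-ND6, and the difference between the mean at 8 h and untreated replicate 3, a library not in the first difference, ran from 0.03 for MT-ND3 to 1.82 for MT-ND6. Pearson's r across these 15 genes was 0.933 and Spearman's rho 0.946, against 0.471 and 0.428 across 11901 nuclear genes with a mean of at least 100 counts. These are descriptions across genes, which share transcripts and libraries and are not independent replicates. Without untreated replicate 2 the 8 h call at each of the 12 mRNAs stayed.

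**Figure D5:**
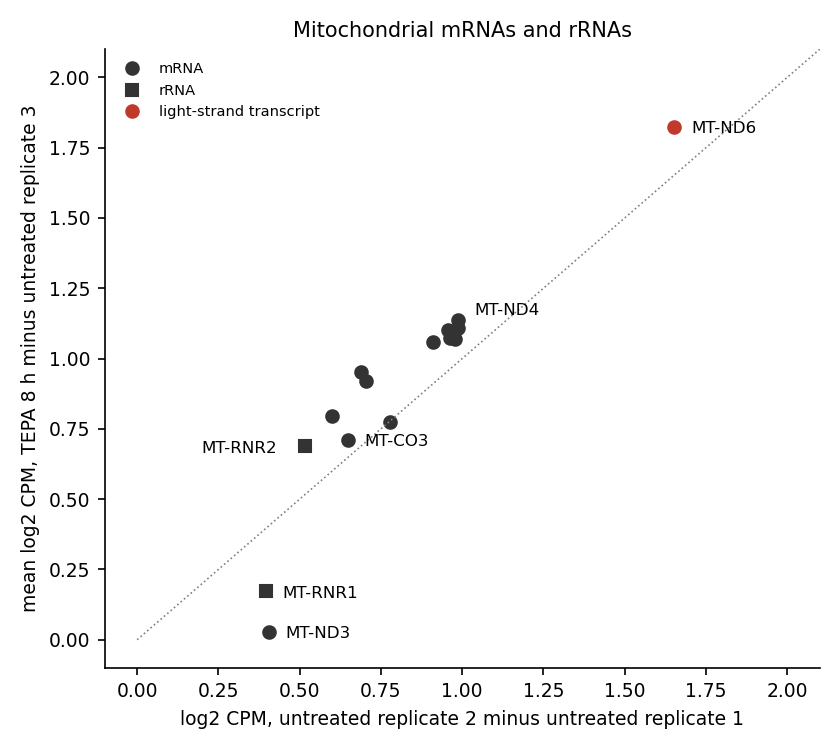
For the 13 mRNAs and 2 rRNAs, the log2 CPM difference between untreated replicates 2 and 1 (horizontal) against that between the 8 h mean and untreated replicate 3 (vertical), with a dotted line where both are equal. MT-ND6 lies at the top right at 1.65 and 1.82, MT-ND3 and MT-RNR1 at the bottom left at 0.40 on the horizontal axis, and the other genes between them.

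Nuclear genome copies of mtDNA genes can take reads from them. Of 402 copies named in the count file, 31 had any count, and 4 copies close together on chromosome 1 of hg38 held 99.6% of their counts. These were MTND2P28 (chr1:629640-630683), MTCO1P12 (chr1:631074-632616), MTCO2P12 (chr1:632757-633438) and MTATP6P1 (chr1:633696-634376), whose reference sequences were 98.4%, 98.7%, 98.2% and 98.5% identical to the mtDNA genes over the aligned bases. MTATP6P1 stood at 15.8% to 16.3% of MT-ATP6 in every library, MTND2P28 at 5.29% to 5.90% of MT-ND2 and MTCO1P12 at 3.10% to 3.34% of MT-CO1. For MTND2P28 the 24 h libraries, at most 5.62%, lay just below the untreated ones, at least 5.66%, and the 8 h libraries overlapped both, while the other 2 ratios overlapped between all groups. MTCO2P12, with 18 to 57 counts in a library, stood at 0.0354% to 0.0426% of MT-CO2 in untreated libraries, 0.0390% to 0.0454% at 8 h and 0.0299% to 0.0358% at 24 h, so that 8 h and 24 h did not overlap. Of the 8 copies that could be tested, 6 were higher at 8 h, 2 lower at 24 h (0 by DESeq2) and 7 lower at 24 h against 8 h, beside 25.2%, 26.8% and 28.8% of all genes, and the count at 24 h is near that share. At 8 h the 4 copies were higher by 0.65, 0.81, 0.74 and 0.97 on the log2 scale in edgeR's test. The counts on MT-ATP6, MT-ND2, MT-CO1 and MT-CO2 are to that extent uncertain, and adding the copies to their mtDNA genes left the counts of called members at 23, 12 and 24.

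Against untreated cells, the nuclear genes that copy mtDNA were higher or did not pass. Of 13 genes of mtDNA transcription and replication, 6 were higher and 0 lower at 8 h (edgeR; 0 lower at an unadjusted p under 0.05 and by DESeq2), with a median of 0.04, beside 25.2% of all genes higher and 24.5% lower, and 5 were higher and 0 lower at 24 h (0 lower by the same other counts), beside 25.7% and 26.8%. Between the times 1 rose and 3 fell in edgeR's test, beside 26.0% and 28.8% of all genes. POLRMT, the mitochondrial RNA polymerase, read 144 ± 3.38 CPM in untreated cells, 178 ± 3.87 at 8 h and 172 ± 6.74 at 24 h (SD, n = 3), and was higher at both times, by 0.31 (SE 0.04, edgeR adjusted p = 8.9e-06) and 0.25 (SE 0.04, adjusted p = 4.6e-05). POLG2, the accessory subunit of the mtDNA polymerase, rose by 1.02 at 8 h and 0.70 at 24 h, and POLG, its catalytic subunit, by 0.40 and 0.17. MTERF1, a factor that binds mtDNA behind the rRNA genes, rose by 0.27 and 0.40. TFAM, which packages mtDNA and activates its promoters, TFB2M, which opens them, and TEFM, an elongation factor, were between -0.07 and 0.01 at both times and did not pass.

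Genes of mitochondrial RNA processing and decay were called in both directions. Of 18, 4 were higher and 5 lower at 8 h, near the 25.2% and 24.5% of all genes, and 1 was higher and 10 lower at 24 h, beside 25.7% and 26.8%. LRPPRC, which with SLIRP holds and stabilizes mitochondrial mRNAs, read 254 ± 15.8 CPM in untreated cells, 304 ± 1.77 at 8 h and 225 ± 4.34 at 24 h. It rose at 8 h by 0.26 (SE 0.04, edgeR adjusted p = 1.1e-04) and fell at 24 h, at -0.18 (SE 0.04, adjusted p = 0.0022), the same order of groups as most mitochondrial mRNAs. SLIRP was at -0.00 at 8 h (edgeR adjusted p = 0.96) and fell at 24 h, at -0.36. PNPT1 and SUPV3L1, the nuclease and helicase that degrade mitochondrial RNA, rose at 8 h by 0.28 and 0.23 and were at 0.10 and 0.01 at 24 h, which did not pass. REXO2, which removes short RNA fragments, fell at both times, at -0.13 and -0.12.

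The enzymes that cut the tRNAs out did not move as 1 group. PRORP, the nuclease of mitochondrial RNase P, was at 0.18 at 8 h (edgeR adjusted p = 0.10) and rose by 0.56 at 24 h, whereas its partners TRMT10C and HSD17B10 fell, TRMT10C at 8 h at -0.34 and HSD17B10 at 24 h at -0.19. ELAC2, which cuts the 3′ ends, fell at 24 h at -0.25. FASTK, known to act on MT-ND6 mRNA, and TBRG4, of the same family, fell at 24 h, at -0.38 and -0.24, and FASTKD5, which acts at mRNA ends not flanked by tRNAs, fell at 8 h at -0.22. GRSF1, of the mitochondrial RNA granules, fell at 24 h at -0.19. MTPAP, the mitochondrial poly(A) polymerase, was at -0.10 and -0.06 and did not pass. The groups of FASTK were 80.4 ± 1.63, 80.2 ± 2.77 and 61.7 ± 1.76 CPM, which places its fall between 8 h and 24 h.

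Nuclear subunits of the same complexes were mostly lower at 8 h, when the mtDNA-encoded ones were higher. Of 11 nuclear subunits of complex IV, 0 were higher and 10 lower at 8 h (edgeR; 0 higher and 11 lower at an unadjusted p under 0.05, 0 and 10 by DESeq2), with a median of -0.23, beside 25.2% of all genes higher and 24.5% lower, and their summed level was 1317 CPM in untreated cells, 1115 at 8 h and 1239 at 24 h. At 24 h 4 were lower and 0 higher (0 higher at an unadjusted p under 0.05 and by DESeq2), beside 26.8% and 25.7% of all genes, and between the times 8 rose and 0 fell, beside 26.0% of all genes higher (0 lower by the same other counts). COX5B, a subunit on the matrix side, read 130 ± 5.69, 97.7 ± 2.82 and 119 ± 3.03 CPM and fell at 8 h at -0.42 (SE 0.04, edgeR adjusted p = 8.9e-07) and at 24 h at -0.13 (SE 0.04, adjusted p = 0.013). COX4I1, COX6C and COX7A2, other small subunits, fell at 8 h at -0.21, -0.24 and -0.30 and at 24 h at -0.23, -0.11 and -0.28. The 3 mtDNA-encoded subunits of the enzyme had moved by 0.64 to 0.82 at 8 h and by -0.49 to -0.34 at 24 h.

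The counts of the other complexes stand beside the same shares of all genes, 25.2% higher and 24.5% lower at 8 h, 25.7% and 26.8% at 24 h, and 26.0% and 28.8% at 24 h against 8 h. Of 37 nuclear subunits of complex I, 6 were higher and 20 lower at 8 h (median -0.15) and 2 higher and 15 lower at 24 h (median -0.10), and between the times 13 rose and 8 fell. NDUFS7 and NDUFB10 fell at 24 h at -0.64 and -0.56, while NDUFS1 and NDUFS3 rose by 0.31 and 0.28. Of 9 nuclear subunits of complex III, 7 were lower at 8 h and 6 at 24 h, with 0 higher at either time (edgeR; 1 and 0 at an unadjusted p under 0.05, 0 by DESeq2), and between the times 2 rose and 3 fell. CYC1, cytochrome c1, was at 0.07 at 8 h (edgeR adjusted p = 0.18) and fell at 24 h at -0.51, with UQCRC2 at -0.43, UQCRFS1 at -0.16 and UQCRB at -0.11. Of 16 nuclear subunits of ATP synthase, 2 were higher and 10 lower at 8 h and 1 higher and 9 lower at 24 h, and between the times 4 rose and 3 fell. ATP5ME, ATP5MC3 and ATP5F1B fell at 24 h at -0.29, -0.24 and -0.10, and ATP5PF rose by 0.21. Complex II has no mtDNA-encoded subunit, and 2 of its 4 genes passed as lower after 8 h, and 1 after 24 h, when SDHA fell at -0.20. The difference between mtDNA-encoded and nuclear subunits was not itself tested.

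How poly(A) selection worked in each library bears on mtDNA rows, since their tails are short. RNAs without a poly(A) tail were followed as a list of 13, of which 6 had no count in any library and 2 could be tested. Their summed level, led by RN7SL1, the RNA of the signal recognition particle, was 2.43, 3.31 and 2.13 CPM in untreated replicates 1, 2 and 3, 3.27, 3.01 and 4.14 CPM at 8 h and 3.47, 4.29 and 7.42 CPM at 24 h. None passed at 8 h (edgeR; 0 at an unadjusted p under 0.05 and 0 by DESeq2), beside 25.2% of all genes higher and 24.5% lower. RN7SL1 rose at 24 h by 1.18 (SE 0.27, edgeR adjusted p = 0.0016), beside 25.7% of all genes higher. The mean of the sums was highest at 24 h. It was raised by 24 h replicate 3, and the other 24 h libraries overlapped those at 8 h. Untreated replicate 2 had the highest sum of the untreated libraries. The part of selection in the mitochondrial results was not tested.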

How the data were processed

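RNA-Seq of 9 MDA-MB-231 libraries was examined. Per the labels and the study's methods, total RNA was made into libraries with a TruSeq stranded mRNA kit, which selects poly(A) RNA, and sequenced as paired reads of 100 bases. The authors used FastQC for quality, HISAT2 for alignment (hg38) and featureCounts for strand-aware counting of read pairs over the exons of each gene name in a GRCh38 annotation. They deposited the raw count of 59453 gene names, with 1 column per library and no normalization. Every column belonged to a sample of the series, and the rows naming no gene numbered 0. Total counts ran from 34633755 to 49342659.

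Testing used edgeR 4.0.16 in R 4.3.3. Its filterByExpr (minimum count 10) kept 16556 genes, and TMM factors were 0.978 to 1.039. A single quasi-likelihood model held the 9 libraries, and Benjamini-Hochberg adjustment ran over the whole tested table, with 0.05 as the threshold. CPM are on the TMM-scaled sizes. The SE of a log2 fold change is its absolute value over the square root of F. The biological coefficient of variation was 0.0481. Floors are 3 counts, and intervals and floors cover counting error only. With 3 libraries against 3, a permutation test cannot go below p = 0.1, so single values were not tested that way.

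The members and lists were chosen with earlier results of these data known. All members are named, the 13 mRNAs and 2 rRNAs with values. Of each list, the 2 genes highest and 2 lowest at 24 h among those past the threshold with a mean of at least 100 counts are named, as well as 18 core factors of mitochondrial RNA synthesis, processing and decay. The lists were mtDNA transcription and replication, mtRNA processing and decay, rRNA and tRNA maturation, biogenesis regulators, nuclear subunits of complexes I to V, RNAs without a poly(A) tail, MT-RNR2-like genes, nuclear copies of mtDNA genes, and markers of the cell line and of luminal, fibroblast, leukocyte and endothelial cells. Sequences and positions were read from the hg38 reference with the GENCODE annotation. Alternatives were RLE and upper-quartile factors, no factors, library sizes without mitochondrial rows, DESeq2 1.42.0, no filter, at least 10 counts in every library, the 2 groups compared alone, the replicate number as a block, a log2 limit of 0.5, and leaving out each library. The procedure was tested on simulated counts.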

Additional observations from a re-analysis of the deposited data

Results flagged for a closer look

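The difference from untreated cells was not the same at 24 h as at 8 h for 24 of the 28 mitochondrial transcripts tested, as given by edgeR's comparison of the 24 h with the 8 h libraries, which is the test of that difference since both times share the untreated group. TEPA and time in culture cannot be told apart in it. The values that follow are the log2 fold change at 24 h minus that at 8 h, and each had an adjusted p under 0.05.

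Among mRNAs of complex I the differences were -1.48 for MT-ND1, -0.78 for MT-ND2, -1.49 for MT-ND4, -1.43 for MT-ND4L, -1.43 for MT-ND5 and -1.86 for MT-ND6. For complex III, MT-CYB differed by -1.15. The complex IV mRNAs MT-CO1, MT-CO2 and MT-CO3 differed by -1.16, -1.03 and -1.13, and the ATP synthase mRNAs MT-ATP6 and MT-ATP8 by -1.33 and -1.32. The rRNAs differed least among these, by -0.47 for MT-RNR1 and -0.53 for MT-RNR2. Of heavy-strand tRNAs, MT-TL1 differed by -1.84, MT-TI by -1.51, MT-TM by -1.32, MT-TD by -2.46 and MT-TK by -3.18, the last with 5 counts over the 24 h libraries. MT-TK, MT-TC and MT-TS1 passed the expression filter only through the 8 h libraries, where they were highest. Of light-strand tRNAs, MT-TQ differed by -2.77, MT-TC by -1.55, MT-TS1 by -1.78, MT-TE by -1.84 and MT-TP by -2.28. Over the fits that each left out 1 library, the value of MT-TS1 ran from -2.40 to -1.37. Groups of 3 libraries were not screened for outliers.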

How the results depend on the processing

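The counts of members higher at 8 h and lower at 24 h against 8 h stayed within 1.5 times their main values of 23 and 24 under every alternative run, and no member that had been called changed direction. The count lower at 24 h against untreated, 12, depended on the processing: it was 4 with DESeq2, 2 with a log2 limit of 0.5, and 4 to 19 when 1 library was left out. It was 4 without untreated replicate 2, 19 without untreated replicate 1, 5 without 24 h replicate 2 and 6 without 24 h replicate 3, and the count higher at 24 h, 0, was 2 without untreated replicate 2. The cause was not tested. Over the fits that left out a library, 20 to 28 members were higher at 8 h and 24 to 27 lower at 24 h against 8 h, and the mitochondrial share was 1.96% to 2.52% in untreated cells, 3.80% to 4.00% at 8 h and 1.92% to 1.99% at 24 h. Adding the nuclear copies to their mtDNA genes, an alternative chosen after the data were seen, left 23, 12 and 24.

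Libraries with the same replicate number did not deviate together (Pearson's r from -0.0801 to 0.0383 over the 9 pairs), so the numbers do not pair the samples. With the replicate block, 23 members were higher at 8 h, 10 lower at 24 h and 25 lower at 24 h against 8 h. Low counts limit the tRNAs, of which 9 could not be tested.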

Other observations

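Genes that mature the mitochondrial rRNAs and tRNAs were called in both directions, with 8 of 19 higher and 3 lower at 8 h and 5 higher and 7 lower at 24 h by edgeR's test, beside 25.2%, 24.5%, 25.7% and 26.8% of all genes. ERAL1, which assembles the small ribosomal subunit on MT-RNR1, read 64.5 ± 0.673 CPM in untreated cells, 61.8 ± 0.623 at 8 h and 45.2 ± 2.23 at 24 h (SD, n = 3), and fell at 24 h at -0.51 (edgeR adjusted p = 9.0e-08). GTPBP3, which modifies tRNAs, fell at 24 h at -0.58, and the RNA methyltransferases TRMT61B and NSUN3 rose by 0.44 and 0.28. Of 7 regulators of mitochondrial biogenesis, 2 were higher and 2 lower at 8 h, and 0 higher and 4 lower at 24 h (0 higher at an unadjusted p under 0.05 and by DESeq2), beside the same shares of all genes, to which the 8 h counts are near. PPRC1, a coactivator, rose at 8 h by 0.28 and fell at 24 h at -0.30, and PPARGC1B, NRF1 and the protease gene LONP1 fell at 24 h at -0.41, -0.24 and -0.24.

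Of the 13 MT-RNR2-like genes, nuclear genes that resemble MT-RNR2, 11 had no count. MTRNR2L12 and MTRNR2L8 passed as higher at 8 h in edgeR's test, at 1.16 and 1.02, beside 25.2% of all genes. DESeq2 called 1 of the 2, at levels under 1 CPM. MALAT1 and NEAT1, long RNAs kept in the nucleus, were chosen after their values were seen. MALAT1 read 10.1 ± 1.85 CPM in untreated cells, 39.8 ± 1.34 at 8 h and 13.8 ± 1.74 at 24 h, and NEAT1 read 52.9 ± 4.83, 94.7 ± 5.92 and 30.4 ± 3.56 CPM (SD, n = 3). Both rose at 8 h, by 1.97 and 0.84 in edgeR's test, beside 25.2% of all genes higher. Both fell between 8 h and 24 h, beside 28.8% of all genes lower. At 24 h against untreated cells they differed, with MALAT1 at 0.45 (edgeR adjusted p = 0.0031) and NEAT1 at -0.80 (edgeR adjusted p = 4.6e-07).

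Markers of the cell line moved as well. VIM, CD44, MSN and AXL, genes high in these cells, were all 4 higher at 8 h in edgeR's test, beside 25.2% of all genes. By the same test VIM, MSN and AXL were lower at 24 h, at -0.12, -0.12 and -0.24, beside 26.8% of all genes. ERBB2 fell at 24 h at -0.62, and CDH1, the epithelial cadherin, rose then by 2.33 from 0.431 to 0.722 CPM in untreated libraries to 2.33 to 3.89 CPM. The summed luminal markers, led by the keratin gene KRT8, were 718, 602 and 692 CPM in the untreated, 8 h and 24 h groups, with KRT18 lower at 24 h at -0.21 and GATA3 higher at 0.42. COL1A1 rose by 1.25 at 8 h and 0.40 at 24 h, and PDGFRB fell at 8 h, at -0.33 (edgeR adjusted p = 0.012) with overlapping groups, and rose by 1.47 at 24 h. The leukocyte markers summed to 0.22, 0.329 and 0.28 CPM.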
